A study of Mus musculus with 24 samples.

Results

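Expression of 10 genes used to grade macrophage activation was followed in irradiated mouse thymocytes: Arg1, Nos2, Acod1, Hcar2, Msr1, Mrc1, Cd163, Chil3, Retnla and Spp1. They were 10 of the 21154 genes named on the array and were read by 12 of its 55681 probes, each found by matching the accession of a probe to the gene. The set was built around Arg1 and Hcar2 because their signal was among the largest rises in mice given the adaptive regimen of radiation (RAR), so the genes were chosen by these same log2 ratios and RAR against control is a description below, with no test, for all 10 genes. For Arg1 and Hcar2 every comparison with RAR is treated in the same way. Their single-dose comparisons share the control arrays with that choice and are not fully independent of it.

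Macrophages take up dying cells, and the thymus, where most developing T cells die, depends on them for clearance. Macrophages exposed to interferon and microbial products make nitric oxide and itaconate from the enzymes encoded by Nos2 and Acod1, and this state is called classical activation. Macrophages exposed to interleukin 4 or 13 express Arg1, Chil3, Retnla and Mrc1 in the mouse, and this state is called alternative activation. Several of these genes also respond to other stimuli or are made by other cells, such as neutrophils in the case of Chil3, so none of them identifies a macrophage by itself.

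The samples were primary thymocytes of C57BL/6J mice of 4 to 5 weeks, prepared by dispersing and straining whole thymus without a sort for any cell type. Control mice were not irradiated, low dose mice received 0.075 Gy of X-rays, high dose mice received 1.75 Gy of γ-rays, and RAR mice received both, the X-rays first and the γ-rays 6 h later. Females and males of each treatment were measured on 3 arrays each, 24 arrays in all, from separate thymocyte samples of 3 mice per group. The time between the last exposure and tissue collection is not given in the sources used here, and low and high dose differed in radiation type as well as in dose, so these cannot be told apart. Each array set Cy5-labeled thymocyte RNA against a Cy3-labeled universal mouse reference RNA common to all arrays, and the level of a gene is the log2 of that ratio. A level therefore says how a gene stood against the reference, and levels of different genes cannot be ranked against each other.

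The share of Cy5 spots well above background was 49.3% to 62.8% on 22 arrays and differed on 2 of the female RAR arrays, with 71.8% on replicate 2 and 34.7% on replicate 3. Replicates of a group correlated at 0.801 to 0.914 across probes. All 11 markers of double-positive thymocytes, the main cells of the thymus, were well above background on every array, and Xist and Ddx3y matched the sex given for each array. The arrays were spread over 3 slides, with all female controls on 1 slide and all female high dose arrays on another. The number of arrays limits the precision, since 3 against 3 cannot give an exact two-sided permutation p below 0.1, and the p-values below come from limma, adjusted over all 55681 probes. A call required an adjusted p below 0.05 together with a 1.5-fold or larger change.

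Acod1, Hcar2, Msr1 and Chil3 rose after the low dose alone and after the high dose alone, in females and in males. In females, 5 of the 10 genes were called after the low dose (4 higher, and Mrc1 lower) against 8.77% of all probes, and 4 of 10 after the high dose, all higher, against 7.89%. In males, 4 of 10 were called after the low dose against 6.65% of all probes and 5 of 10, with Spp1 as the additional gene, after the high dose against 10.6%. In RAR, Acod1, Msr1, Mrc1, Chil3 and Spp1 were called above both single doses, 5 of the 8 genes other than Arg1 and Hcar2. These comparisons use the RAR arrays by which the set was chosen, so their calls are not independent of that choice. A Cy5 signal well above background throughout at least 1 group was found for 9 of the 10 genes, Cd163 being the exception. The share of all probes called was 7.3% for RAR against high dose and 4.14% for RAR against low dose in females, and 5.89% and 9.78% in males. The median change of the 10 genes was 0.46 and 0.20 in females and 0.72 and 0.66 in males after the low and high dose, beside −0.05, −0.02, 0.0012 and −0.02 over all probes. In RAR it was 2.75 in females and 3.51 in males, as a description of how the genes were chosen. The Arg1 signal stood well above background throughout both RAR groups, and throughout no other group.

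In this mixture of cells, more cells of a type and more RNA per cell cannot be told apart. Without female RAR replicates 2 and 3, a choice made after seeing the data, 2 genes (Acod1 and Spp1) in place of 5 were past the threshold in female RAR against each single dose, with the remaining array assumed to vary like the other groups. The 5 called female changes kept their direction, and the changes that missed the threshold were those of Msr1 (1.45 against high dose and 1.57 against low dose, log2), Mrc1 (1.20 and 2.15) and Chil3 (1.99 and 1.33). Where a slide held arrays of both groups compared, the difference within that slide had the direction of the call in 43 of 43 cases. These cases were of the genes called above, whose compared groups did not overlap, so the count was fixed in advance. It cannot decide whether the slides differed. No slide held both female control and female high dose arrays, and none held both female control and female RAR arrays. Differences between these female groups therefore cannot be told apart from differences between slides.

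**Figure D1:**
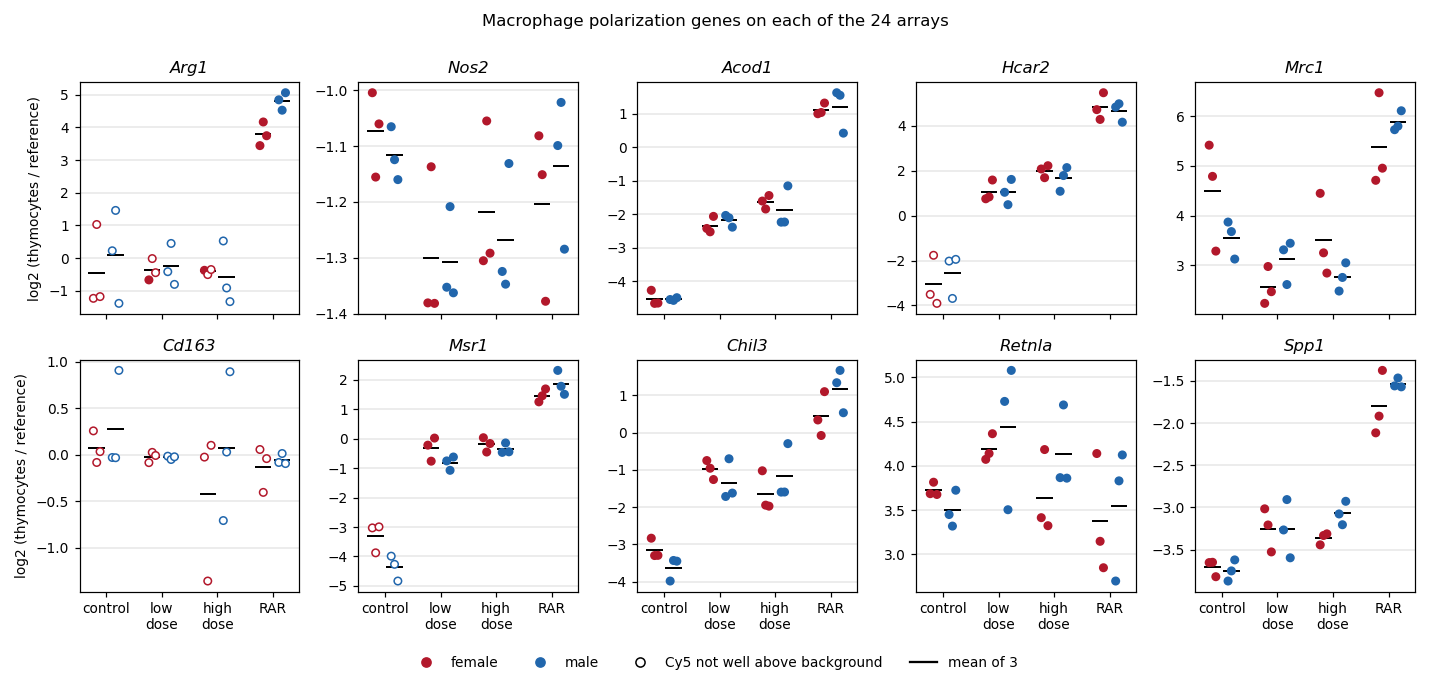
Level of each of the 10 genes on each of the 24 arrays, as the log2 ratio of thymocyte to reference RNA, with females in red and males in blue, the mean of 3 arrays as a bar, and open circles where the Cy5 signal was not well above background. Vertical scales differ between genes. Arg1 is high on the 6 RAR arrays, whereas Acod1, Hcar2, Msr1 and Chil3 step up at both single doses and again in RAR.

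Arg1 encodes arginase 1, which splits arginine into ornithine and urea and so competes with nitric oxide synthase for the same substrate. Its log2 ratio on the female arrays was −1.23, 1.03 and −1.18 in control, −0.67, −0.01 and −0.45 after the low dose, −0.37, −0.50 and −0.35 after the high dose, and 3.44, 4.17 and 3.74 in RAR. On the male arrays it was 0.22, 1.46 and −1.38 in control, −0.41, 0.45 and −0.80 after the low dose, 0.52, −0.91 and −1.33 after the high dose, and 4.84, 4.53 and 5.06 in RAR. The lowest RAR array was above the highest of the 18 other arrays, and control, low dose and high dose overlapped in both sexes.

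Arg1 was not well above background in Cy5 on any control array, and after a single dose it was so on 1 of 3 female low dose arrays and 1 of 3 female high dose arrays. Against these controls Arg1 in RAR was at least 37.1-fold higher in females and at least 38.9-fold higher in males, computed in the Cy5 channel, with each dim array standing at its own signal for the probe or at the lowest signal well above background, whichever was higher. In males RAR was at least 30.6-fold above high dose and at least 26.8-fold above low dose. Such limits hold only for the background-subtracted Cy5 signal after a normalization that used both channels (loess and Aquantile). They are open to dye bias, since the dyes were not swapped. Scaled to the 75th percentile, the Cy5 channel gave log2 differences of 5.77 and 5.71. The ratio gave a smaller log2 difference between RAR and control of 4.24 in females and 4.71 in males, each with a standard error of 0.64. Under another background correction (normexp) these log2 differences were 1.88 and 1.94.

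Neither single dose moved Arg1 past the threshold. In females the change against control was 0.08 after the low dose (95% interval −1.26 to 1.43, limma adjusted p = 0.965) and 0.05 after the high dose (−1.30 to 1.40, adjusted p = 0.986). In males it was −0.36 after the low dose (−1.70 to 0.99, adjusted p = 0.837) and −0.67 after the high dose (−2.02 to 0.67, adjusted p = 0.563). The Cy5 signal lay at background on most of these arrays. The reference was well above background for Arg1 on 6 of 24 arrays. In the Cy5 channel alone the male changes had the opposite sign, 0.72 after the low dose and 0.63 after the high dose, where the median of all probes was 0.14 and 0.08.

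**Figure D2:**
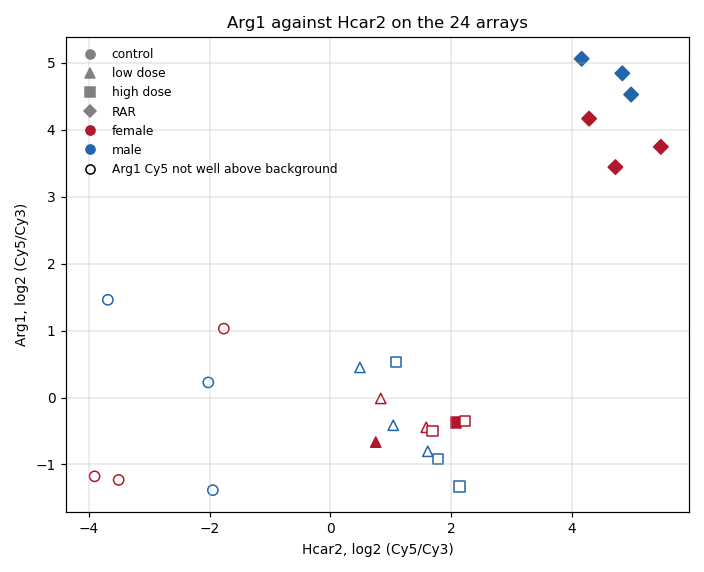
Arg1 against Hcar2 on the 24 arrays, both as the log2 ratio of thymocyte to reference RNA, with treatment shown by symbol, sex by color and open symbols where Arg1 was not well above background. The single-dose arrays are shifted to the right of the controls along the Hcar2 axis but not upward along the Arg1 axis, and the 6 RAR arrays stand apart at the top right.

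Nos2 encodes inducible nitric oxide synthase, the enzyme most often used as a mark of classical activation. Its log2 ratio lay between −1.38 and −1.005 on all 24 arrays, and its Cy5 signal was well above background on each of them. It was −1.07 ± 0.076 in female control, −1.20 ± 0.15 in female RAR, −1.12 ± 0.048 in male control and −1.14 ± 0.13 in male RAR (SD, n = 3). Each irradiated group overlapped with the control of its sex except male low dose, which lay below male control. None of its changes was called. The largest in size among the single doses was −0.23 in females after the low dose (95% interval −0.46 to 0.0047, limma adjusted p = 0.215).

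Acod1 encodes the mitochondrial enzyme that makes itaconate, an antimicrobial metabolite of activated macrophages. The log2 ratio of Acod1 in females was −4.27, −4.66 and −4.65 in control, −2.42, −2.52 and −2.06 after the low dose, −1.60, −1.84 and −1.44 after the high dose, and 1.01, 1.04 and 1.33 in RAR. Male arrays read −4.54, −4.57 and −4.49 in control, −2.03, −2.10 and −2.38 after the low dose, −2.23, −2.23 and −1.15 after the high dose, and 1.63, 1.56 and 0.43 in RAR. Control, the single doses and RAR did not overlap in either sex, and both channels were well above background on all 24 arrays.

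Acod1 rose by 2.19 ± 0.29 (SE) on the log2 scale in females and 2.36 ± 0.29 in males after the low dose (limma adjusted p = 5.26e-05 and 3.12e-05). After the high dose it rose by 2.90 ± 0.29 and 2.66 ± 0.29 (limma adjusted p = 3.04e-06 and 5.46e-06). RAR exceeded high dose by 2.75 ± 0.29 (female arrays, limma adjusted p = 1.12e-05) and 3.08 ± 0.29 (male arrays, adjusted p = 2.97e-06), and it exceeded low dose by 3.46 and 3.38 (limma adjusted p = 1.17e-06 and 4.65e-07).

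Promoters of 2 genes are printed here as the 250 bases before the transcription start, because Acod1 rose after both single doses in each sex whereas no change of Retnla was called. The sequences are those of RefSeq on GRCm38.p6, read on the strand of the gene, and capitals mark matches to the motifs searched. Both lie on the plus strand, Acod1 at chr14:103046762-103047011 and Retnla at chr16:48842359-48842608.
Acod1: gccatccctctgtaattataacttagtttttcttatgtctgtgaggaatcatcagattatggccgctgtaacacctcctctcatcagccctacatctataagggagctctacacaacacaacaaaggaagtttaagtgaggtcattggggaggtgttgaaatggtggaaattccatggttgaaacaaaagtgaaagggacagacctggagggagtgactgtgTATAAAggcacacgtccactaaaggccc
Retnla: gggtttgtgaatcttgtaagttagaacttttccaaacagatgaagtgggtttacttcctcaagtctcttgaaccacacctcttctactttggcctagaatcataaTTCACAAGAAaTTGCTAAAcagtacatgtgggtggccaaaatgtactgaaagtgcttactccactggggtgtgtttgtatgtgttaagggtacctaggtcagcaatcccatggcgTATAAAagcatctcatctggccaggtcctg

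Both strands were searched for 5 motifs: a STAT6 site TTCNNNNGAA, an NF-kB site, an AP-1 site TGANTCA, a C/EBP site TTGCNNAA and a TATA box TATAAA. Of 32851 promoter windows of the same length, 5.85%, 1.41%, 6.75%, 9.56% and 12.4% held them, in that order. The Retnla window held a STAT6 match 145 to 136 bases before the start, a C/EBP match 134 to 127 bases before it and a TATA box. Acod1 held a TATA box 28 to 23 bases before its start. A match describes these letters and is neither a binding site nor a cause. Promoters were matched for 6 of the 10 genes, and those of Arg1, Hcar2, Nos2 and Msr1 were not used here. The windows of Cd163 and Mrc1 held none of the 5 motifs, and the 2 windows of Spp1 held a TATA box and a C/EBP match.

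Hcar2 encodes a G protein-coupled receptor of myeloid cells and adipocytes for nicotinic acid and the ketone body β-hydroxybutyrate. Its log2 ratio in females was −3.51, −1.77 and −3.91 in control, 0.75, 0.83 and 1.59 after the low dose, 2.08, 1.69 and 2.22 after the high dose, and 4.72, 4.28 and 5.47 in RAR. The male values were −2.02, −3.69 and −1.95 in control, 1.04, 0.49 and 1.61 after the low dose, 1.08, 1.78 and 2.14 after the high dose, and 4.83, 4.98 and 4.16 in RAR. All 4 female groups were separate and in this order, whereas low and high dose overlapped in males.

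Hcar2 was not well above background on any of the 6 control arrays and was so on all 18 irradiated arrays. After the low dose it was at least 12.97-fold higher in females and at least 10.98-fold higher in males (log2 changes of 4.12 ± 0.53 and 3.60 ± 0.53, SE, limma adjusted p = 4.22e-05 and 0.000214). After the high dose it was at least 22.4-fold and at least 15.6-fold higher (5.06 ± 0.53 and 4.22 ± 0.53, limma adjusted p = 5.41e-06 and 2.59e-05). These tests use the control arrays from which the RAR rise of Hcar2 was measured, so they are not independent of its choice. As a description, RAR was at least 182-fold above control in females and at least 152-fold above control in males. All of these limits hold only for the processed Cy5 signal of the brighter Hcar2 probe. They are no lower bounds for the gene, since the changes under normexp and of the second probe were smaller. Under normexp the log2 differences of Hcar2 from control were smaller, 1.24 and 1.19 after the low dose, 1.93 and 1.61 after the high dose, and 4.49 and 4.38 in RAR, in females and males. The log2 difference between RAR and high dose was 2.83 in females and 2.99 in males, and that between RAR and low dose was 3.77 and 3.61.

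The second Hcar2 probe was dimmer, and the reference was well above background for it on 5 of 24 arrays. Its change passed the threshold in females after the high dose (2.41 ± 0.52, SE, limma adjusted p = 0.00395) but not in Cy5 alone (1.83, adjusted p = 0.268). In males after the low dose the value was 1.77, but no array of that group or of its control was well above background in either channel for this probe. Its changes of 1.19 in females after the low dose and 1.11 in males after the high dose did not pass (limma adjusted p = 0.155 and 0.169). Against control the RAR difference of this probe was 2.23 in females and 3.38 in males. In females its RAR mean was 0.18 below that of high dose on the log2 scale, opposite to the brighter probe. On female RAR replicate 3 the scaled Cy5 signal of this probe was 4.95, against −1.06 and −1.24 on the other RAR arrays of the group, while its ratio there was 1.19 against 2.77 and 1.91.

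Msr1 encodes the class A scavenger receptor, which binds modified lipoproteins and dying cells. The log2 ratio of Msr1 in females was −3.03, −3.88 and −2.99 in control, −0.22, −0.77 and 0.02 after the low dose, 0.03, −0.46 and −0.17 after the high dose, and 1.25, 1.45 and 1.69 in RAR. In males it was −3.99, −4.27 and −4.83 in control, −0.76, −1.08 and −0.62 after the low dose, −0.47, −0.15 and −0.45 after the high dose, and 2.31, 1.78 and 1.504 in RAR. Like Hcar2, Msr1 was not well above background on any control array and was so on all irradiated arrays.

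Msr1 was at least 7.02-fold higher after the low dose and at least 6.80-fold higher after the high dose in females (2.98 ± 0.28 and 3.10 ± 0.28 on the log2 scale, SE, limma adjusted p = 1.45e-06 and 8.56e-07). Male arrays read at least 9.73-fold and at least 12.5-fold higher (3.54 ± 0.28 and 4.01 ± 0.28, limma adjusted p = 2.10e-07 and 2.78e-08). RAR exceeded high dose by 1.66 in females and 2.22 in males, and low dose by 1.79 and 2.68 (limma adjusted p = 0.00115, 5.77e-05, 0.000699 and 3.66e-06). RAR was at least 22.5-fold above control in females and at least 58.4-fold in males, as a description. Under normexp the log2 differences of Msr1 from control were also smaller, 0.80 and 0.86 in females and 0.87 and 1.06 in males after the low and high dose, and 1.98 and 2.64 in RAR. The second Msr1 probe changed in the same direction in all of these comparisons, by 1.29 in males after the low dose, where it did not pass (limma adjusted p = 0.0838). The limits above hold only for the processed Cy5 signal of the brighter probe and are no lower bounds under normexp. The second probe gave smaller changes from control. Its mean log2 ratios were −2.97, −0.76 and −1.24 in female control, low dose and high dose, and −2.44, −1.15 and −0.77 in males. In RAR it was 3.78 above control in females and 3.63 in males, against 4.76 and 6.23 for the brighter probe.

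Mrc1 encodes the mannose receptor CD206, a lectin of tissue macrophages. Its log2 ratio in females was 5.42, 4.79 and 3.29 in control, 2.24, 2.98 and 2.47 after the low dose, 4.45, 3.25 and 2.84 after the high dose, and 4.71, 6.47 and 4.95 in RAR. The male values were 3.87, 3.68 and 3.13 in control, 3.31, 2.61 and 3.44 after the low dose, 2.48, 2.76 and 3.05 after the high dose, and 5.73, 5.80 and 6.11 in RAR. Single-dose arrays lay within or below the range of the controls, and RAR arrays lay above all single-dose arrays of their sex. Female RAR overlapped with female control, whereas male RAR lay above male control.

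Mrc1 fell by 1.94 on the log2 scale in females after the low dose (SE 0.51, limma adjusted p = 0.0146), lower on 3 of 3 arrays. The other single-dose changes, −0.98 in females after the high dose, −0.44 in males after the low dose and −0.80 in males after the high dose, missed the threshold (limma adjusted p = 0.257, 0.712 and 0.351). RAR exceeded high dose by 1.86 ± 0.51 in females and 3.12 ± 0.51 in males and low dose by 2.82 ± 0.51 and 2.76 ± 0.51 (limma adjusted p = 0.0244, 0.000786, 0.00291 and 0.00104). The reference was well above background for Mrc1 on 2 of 24 arrays, and in the Cy5 channel alone the female fall was −0.97 (limma adjusted p = 0.0172, range over alternatives 0.00278 to 0.0880). The fall did not pass without female control replicate 1 (−1.48, adjusted p = 0.0880), female control replicate 2 (−1.79, adjusted p = 0.0545) or female low dose replicate 1 (−1.77, adjusted p = 0.0685), nor with slide as a block (−1.90, limma adjusted p = 0.0716), and within the slide that held both groups it was −2.03 with 1 low dose array against 3 controls.

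The female excess of Mrc1 in RAR over high dose was lost without female high dose replicate 2 (1.73, limma adjusted p = 0.0792), female high dose replicate 3 (1.53, adjusted p = 0.115) or female RAR replicate 2 (1.32, adjusted p = 0.124), over a range of 7.82e-07 to 0.404 across alternatives. Cd163 encodes the receptor for haptoglobin and hemoglobin complexes and is another mark of tissue macrophages. It was not well above background in Cy5 on any of the 24 arrays, so these arrays gave no level for it. Its ratios lay between −1.36 and 0.91 and it was not called in any comparison of the ratios. In Cy5 alone Cd163 passed in female RAR against high dose (1.71, limma adjusted p = 0.0252, range over alternatives 0.0252 to 0.860), although no array was well above background.

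Chil3 encodes the secreted chitinase-like protein Ym1. The log2 ratio of Chil3 in females was −2.83, −3.30 and −3.29 in control, −0.75, −0.96 and −1.26 after the low dose, −1.03, −1.95 and −1.97 after the high dose, and 0.34, −0.08 and 1.098 in RAR. In males it was −3.98, −3.43 and −3.45 in control, −1.71, −0.70 and −1.62 after the low dose, −1.60, −1.60 and −0.30 after the high dose, and 1.34, 1.67 and 0.53 in RAR. Both channels were well above background on all arrays, and controls, single doses and RAR did not overlap.

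Chil3 rose by 2.15 ± 0.40 (SE, log2) in females and 2.28 ± 0.40 in males after the low dose (limma adjusted p = 0.00123 and 0.00116) and by 1.49 ± 0.40 and 2.46 ± 0.40 after the high dose (limma adjusted p = 0.0180 and 0.000323). RAR exceeded high dose by 2.10 and 2.34 and low dose by 1.44 and 2.53 in females and males (limma adjusted p = 0.00315, 0.00113, 0.0383 and 0.000285). The female rise after the high dose did not pass with slide as a block (1.84, limma adjusted p = 0.131, range over alternatives 0.00447 to 0.131), nor without female control replicate 2 (1.42), female control replicate 3 (1.42) or female high dose replicate 1 (1.18). The female excess of RAR over low dose did not pass without any 1 of female RAR replicates 1 and 3 or female low dose replicates 1, 2 and 3 (1.12 to 1.56, limma adjusted p = 0.0548 to 0.159).

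Retnla encodes the secreted protein RELMα, induced together with Chil3 by interleukin 4. Its log2 ratio had a lowest, median and highest value of 3.68, 3.68 and 3.81 in female control and 2.85, 3.15 and 4.14 in female RAR. In males these values were 3.32, 3.45 and 3.72 in control and 2.70, 3.83 and 4.12 in RAR. The Cy5 signal of Retnla stood well above background on every array, whereas that of the reference did so on none. No change of Retnla was called, the largest among the single doses being 0.94 in males after the low dose (95% interval 0.07 to 1.81, limma adjusted p = 0.175). Without male low dose replicate 2 this change was 1.41 (limma adjusted p = 0.0468, range over alternatives 0.0468 to 0.748) and that of male RAR against low dose was −1.35 (adjusted p = 0.0259). Under normexp the change in males after the high dose also passed (0.67, limma adjusted p = 0.0411, range over alternatives 0.0411 to 0.691).

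Spp1 encodes osteopontin, a secreted phosphoprotein that binds integrins and CD44. The log2 ratio of Spp1 in females was −3.65, −3.65 and −3.82 in control, −3.02, −3.21 and −3.53 after the low dose, −3.44, −3.33 and −3.31 after the high dose, and −2.12, −1.92 and −1.38 in RAR. Male arrays read −3.87, −3.75 and −3.62 in control, −3.27, −2.91 and −3.60 after the low dose, −3.08, −3.21 and −2.93 after the high dose, and −1.56, −1.47 and −1.57 in RAR. Single-dose arrays lay just above the controls, and RAR arrays lay well above both.

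Spp1 exceeded high dose in RAR by 1.56 ± 0.18 (SE, log2, limma adjusted p = 3.18e-05) in females and 1.54 ± 0.18 (adjusted p = 3.31e-05) in males, and low dose by 1.45 and 1.72 (limma adjusted p = 8.26e-05 and 4.49e-06). Of the single doses, the high dose in males was called (0.68 ± 0.18, limma adjusted p = 0.0137). This call was lost with slide as a block (0.58, limma adjusted p = 0.0846, range over alternatives 0.00281 to 0.0846), without male control replicate 1 (0.62) and without male high dose replicate 3 (0.61), and within the slide that held both groups the difference was 0.81. The other single-dose changes were 0.46 and 0.35 on female arrays and 0.49 after the low dose in males (limma adjusted p = 0.110, 0.261 and 0.0952). The last passed without male low dose replicate 3 (0.66, limma adjusted p = 0.0271, range over alternatives 0.0271 to 0.405).

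**Figure D3:**
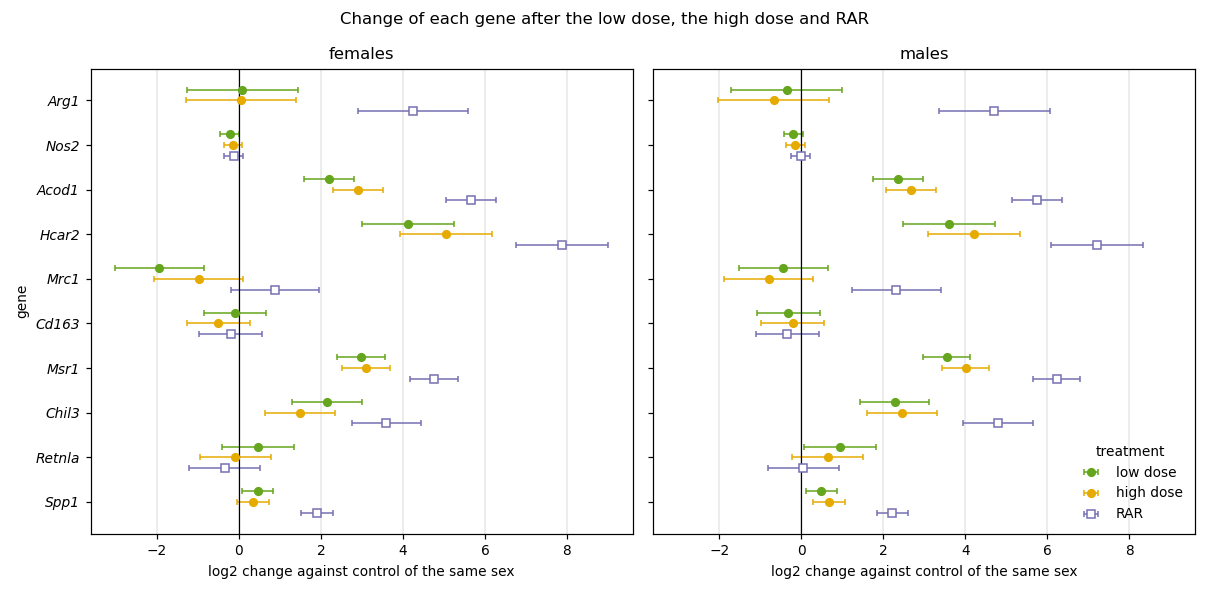
Log2 change of each gene against control of the same sex after the low dose, the high dose and RAR, with 95% intervals from the limma fit; open squares mark RAR, which is shown as a description because it was used to choose the genes. The intervals of Acod1, Hcar2, Msr1 and Chil3 lie wholly to the right of 0 after each single dose, whereas those of Arg1 include 0. The RAR intervals are not read as a test.

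No gene of the 10 differed between high and low dose past the threshold in either sex (limma), where 0% of all probes in females and 0.0018% in males did. At an unadjusted p under 0.05 the count was 1 of 10 in females and 0 of 10 in males, beside 4.74% and 7.35% of all probes. The unmoderated linear model called 0. The high dose exceeded the low dose in Acod1 by 0.71 in females (95% interval 0.10 to 1.32) and 0.30 in males (−0.31 to 0.91). For Hcar2 the difference was 0.94 in females (−0.18 to 2.06) and 0.62 in males (−0.50 to 1.74). For Msr1 it was 0.13 and 0.46, and for Chil3 −0.66 and 0.18. These intervals still hold differences of over 1.5-fold, so the exposures are not shown to act alike.

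Set beside the sum of its 2 single-dose changes, the RAR change of the genes fell into different patterns, given here without a test. For Arg1 the single-dose changes summed to 0.14 in females and −1.03 in males on the log2 scale, whereas RAR differed from control by 4.24 and 4.71. For Mrc1 they summed to −2.92 and −1.23 against RAR changes of 0.88 and 2.32. For Spp1 the RAR change exceeded the sum by 1.102 and 1.05. In these 3 genes RAR was above the sum in both sexes. Under normexp the excess was 2.05 and 2.21 for Arg1, 2.41 and 2.45 for Mrc1, and 1.07 and 0.95 for Spp1. For Acod1 the excess was 0.56 and 0.71, smaller than for Spp1, but under normexp it was 1.22 and 1.19, larger than for Spp1. For Chil3 the RAR change lay within 0.07 of the sum in both sexes (−0.05 and 0.07). For Hcar2 RAR minus the sum was −1.29 and −0.61 and for Msr1 −1.32 and −1.32, with controls at background. Under normexp these values turned to 1.32 and 1.58 for Hcar2 and 0.32 and 0.72 for Msr1, so no direction is given for either gene.

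Sex was the question of the study, and the responses of females and males were compared directly. Past the threshold, 0 of the 8 genes other than Arg1 and Hcar2 differed in the response to RAR, and 0 of 10 in the response to the high or the low dose, where 0% of all probes did. At an unadjusted p under 0.05 the limma counts were 2 of 8, 1 of 10 and 0 of 10, beside 7.64%, 7.01% and 5.71% of all probes. The unmoderated model called 0. The smallest unadjusted p was that of Msr1 in RAR, where the male response exceeded the female response by 1.47 ± 0.39 (SE, log2, limma unadjusted p = 0.00149, adjusted p = 0.514, range over alternatives 0.181 to 0.977). With the other Msr1 probe this difference was −0.14, and the brighter probe was at background in both control groups. Within control, low dose and high dose, 0 of 10 genes differed between the sexes by limma (0.21%, 0.228% and 0.304% of all probes). At an unadjusted p under 0.05 there were 1, 0 and 0 (8.57%, 3.91% and 9.71% of all probes). Within RAR 0 of 8 differed (0.438% of all probes), with 0 at an unadjusted p under 0.05 (11.8% of all probes). The unmoderated model called 0 within each treatment.

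Across the 24 arrays, which are 8 groups of 3 and so share their treatments, Hcar2 followed Acod1 (Pearson r = 0.964), Msr1 (0.944) and Chil3 (0.911) most closely within the set. Arg1 followed Spp1 (0.878) and Mrc1 (0.776). Outside the set, and among 14666 other named genes with signal above background in at least 1 group, Hcar2 was most like Clec4d (0.983), a C-type lectin of myeloid cells, then Lilr4b (0.970), Ccl7 (0.969), a chemokine for monocytes, Atf3 (0.968), a stress-induced transcription factor, and Emilin2 (0.968). Clec4d had a mean log2 ratio of −5.52 in female control, −2.17 after the low dose, −1.50 after the high dose and 1.04 in RAR, the same steps as Hcar2. Arg1 was most like Psme2b (0.937), Tmem37 (0.935), Calr (0.933), which encodes a chaperone of the endoplasmic reticulum, Lgals3bp (0.932) and Psmb10 (0.929), an immunoproteasome subunit. Lgals3bp stood at 0.14 in female control, 0.52 and 0.49 after the low and high dose, and 2.18 in RAR. Psme2b and Lilr4b have near-identical copies, so their probes are uncertain. These correlations are descriptions, ordered by size.

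The other genes of both activation states were examined by list, with 1 probe per gene. The counts of every list below stand beside the share of all probes called in either direction. In females it was 8.77% after the low dose, 7.89% after the high dose and 20.5% in RAR. In males it was 6.65%, 10.6% and 24.6%. Of 18 measured genes of classical activation, 8 rose in females after the low dose, 7 after the high dose and 11 in RAR, and none fell. In males 7, 10 and 13 rose. Il1b, the interleukin 1β gene, rose by 4.77, 5.09 and 4.92 in females and by 5.56, 5.78 and 5.15 in males, so its mean change in RAR was below that after the high dose in both sexes. Cxcl10, an interferon-induced chemokine, rose by 1.32, 1.20 and 4.86 in females and by 1.46, 2.35 and 6.77 in males. Il6 rose by 3.13, 1.63 and 2.35 in females and by 3.13, 3.13 and 3.93 in males. The weakest of these changes was that of Il6 in females after the high dose (limma adjusted p = 0.0331).

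Of 20 genes of alternative activation, 5, 6 and 11 rose in females after the low dose, the high dose and in RAR, with 1 lower in RAR, and 4, 6 and 13 rose in males. Tgm2, a transglutaminase, rose by 1.98, 1.96 and 4.29 in females and by 1.35, 1.78 and 4.41 in males. Fn1, which encodes fibronectin, rose by 1.64, 1.26 and 3.02 and by 1.46, 1.92 and 3.90. Flt1, a receptor for vascular growth factor, rose by 1.78, 1.02 and 2.62 and by 1.75, 1.49 and 2.84. The median change of this list in RAR was 0.67 in females and 1.15 in males, and that of classical activation was 1.24 and 1.71, beside −0.04 and −0.02 over all probes. The background called in either direction was 20.5% for RAR against control in females and 24.6% in males.

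The partners of Arg1 and Hcar2 did not move as a block, and in lists this short a count of 1 or 2 is not read as a movement. Of 17 genes of arginine and polyamine metabolism, 2 rose and 2 fell in females after each single dose and 5 rose and 2 fell in RAR, and in males 2 rose and 3 fell, 3 rose and 2 fell, and 6 rose and 3 fell. Ass1, which remakes arginine from citrulline, rose by 1.01 to 1.42 in all 6 comparisons, Sat1, which acetylates polyamines, by 0.61 to 1.72, and Srm, spermidine synthase, changed by −1.23 to −0.82. Of 14 genes of hydroxycarboxylic acid and prostaglandin signalling, 1, 2 and 2 rose and 1, 1 and 3 fell in females, and 2, 2 and 5 rose and 1, 2 and 2 fell in males. The lactate transporter gene Slc16a3 had changes of 0.57 to 1.20, with the lowest, in females after the low dose, under the 1.5-fold limit. Ptges, a prostaglandin E synthase, rose by 0.59 to 1.31, and the prostaglandin receptor gene Ptger4 had changes of −1.18 to −0.47, the smallest, in females after the high dose, under the limit.

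Of 15 other scavenger and lectin receptor genes, 3, 2 and 5 rose in females after the low dose, the high dose and in RAR, and 4, 4 and 5 rose in males, with at most 1 lower in any comparison. Clec4d rose by 3.36, 4.03 and 6.56 in females and by 3.93, 4.46 and 6.97 in males. Clec4e, another lectin that senses dead cells, rose by 1.51, 1.74 and 2.73 and by 1.47, 1.85 and 3.18. Stab1, a clearance receptor of tissue macrophages, was 1.56 above control in female RAR and 2.24 in male RAR. Of 14 partners of itaconate and osteopontin, 4, 3 and 7 rose in females and 3, 4 and 7 in males, and none fell. Among them Hmox1, heme oxygenase 1, rose by 1.39, 1.35 and 2.71 and by 1.40, 1.70 and 3.08, and Cd44, an osteopontin receptor, had RAR changes of 1.26 and 1.98.

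**Figure D4:**
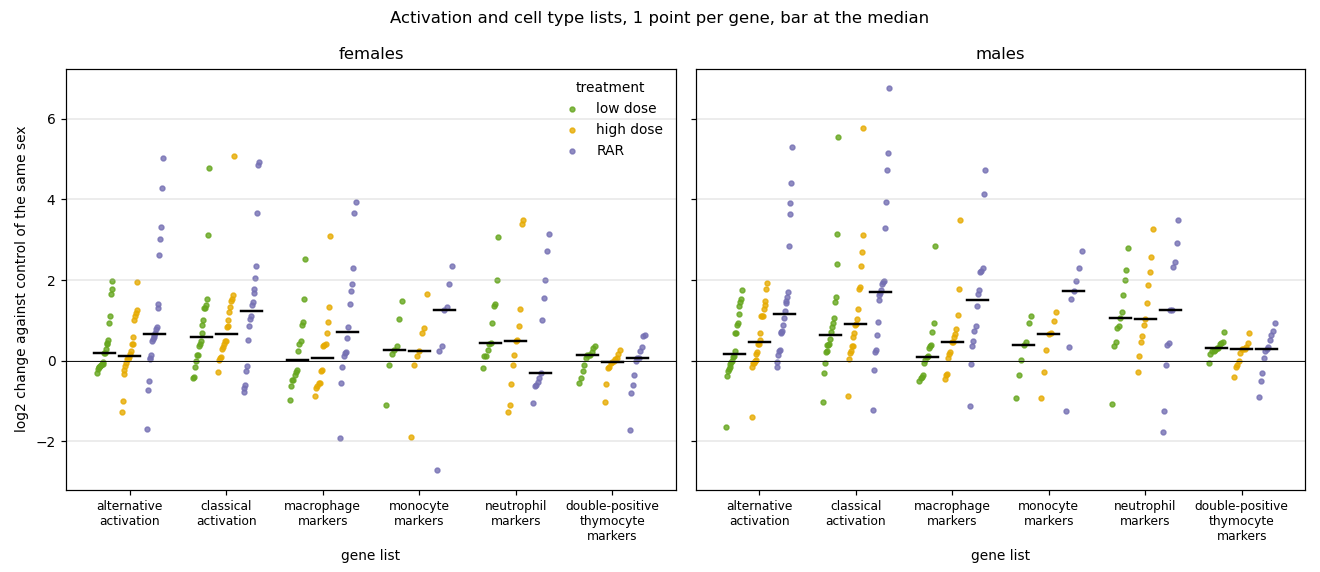
Log2 change against control of the same sex for each gene of 6 lists, with 1 point per gene and a bar at the median, for the low dose, the high dose and RAR. The classical and alternative activation lists have higher medians in RAR than after the single doses in both sexes, and double-positive thymocyte markers stay near 0.

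Markers of macrophages and of other cells were also examined, and their part in the results was not tested. The median change of the macrophage markers was 0.007, 0.06 and 0.70 in females after the low dose, the high dose and in RAR. In males it was 0.11, 0.47 and 1.51. Of all probes, 8.77%, 7.89% and 20.5% were called in these female comparisons and 6.65%, 10.6% and 24.6% in the male ones. Of 14 macrophage markers, 3, 2 and 7 rose in females after the low dose, the high dose and in RAR, and 2, 6 and 10 rose in males, with 1 lower in female high dose and in female RAR. Their summed Cy5 signal, on a log2 scale relative to the 75th percentile of the array, was 4.99 to 5.36 in female control, 5.05 to 5.14 after the low dose, 4.93 to 5.08 after the high dose and 5.64 to 6.13 in RAR. The male values were 4.65 to 4.998, 4.94 to 4.99, 5.17 to 5.27 and 5.98 to 6.54. Female single-dose arrays thus lay within or below the range of their controls, male high dose arrays lay above theirs, and RAR arrays lay above all others in each sex. No macrophage marker was at background in every array of a group. Cd14 rose by 2.52 and 3.10 at the single doses in females and by 2.84 and 3.49 in males.

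Of 11 neutrophil markers, 5, 4 and 5 rose in females and 5, 5 and 6 in males, with 1 lower in male RAR. Their summed signal was 8.52 to 8.67 in female control and 9.88 to 9.98 in female RAR, and 8.70 to 8.93 and 9.84 to 9.99 in males. After the low and high dose it was 9.15 to 9.49 and 9.04 to 9.27 in females and 9.17 to 9.69 and 9.39 to 9.61 in males, above the controls. The median change of the 11 markers in female RAR was −0.30, since the 6 that were not called had values below 0 there. On the female control arrays 2 of these markers were at background. The neutrophil genes Cxcr2 and Stfa2l1 were 3.39 and 3.48 above control in females after the high dose. Of 7 monocyte markers, 2, 2 and 4 rose in females and 1, 1 and 5 in males, with 1 lower in female high dose and in female RAR, and their sum was 6.69 to 7.47 in female control and 8.55 to 8.68 in female RAR, and 6.85 to 7.34 and 8.51 to 9.07 in males. Of 10 dendritic cell markers, 2, 2 and 5 rose in females and 2, 4 and 5 in males, among them Itgax by 1.84 and 1.94 and Siglech by 1.74 and 1.62 in RAR. Of 10 eosinophil and mast cell markers, 2, 1 and 1 rose in females and 1, 1 and 3 in males, with Tpsb2 higher by 2.67 and 3.28 in RAR, and a change of −3.55 in Cpa3 in males after the high dose. Between 0 and 2 of them fell in each comparison.

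Of the 11 double-positive thymocyte markers, 0, 0 and 2 rose in females and 1, 1 and 3 in males, and 3 fell in female RAR and 1 in male RAR. Rag1, the recombinase gene, was 0.64 and 0.95 above control in RAR, and Themis was −0.61 and −0.89 from it. Their summed Cy5 signal was lower in RAR, 9.53 to 9.92 against 10.34 to 10.50 in female control and 9.44 to 9.57 against 10.25 to 10.37 in male control, while their mean log2 ratio to the reference was 5.44 to 5.56 against 5.50 to 5.83 and 5.52 to 5.72 against 5.35 to 5.49. Of 11 markers of thymic stroma and epithelium, 1, 3 and 3 fell in females and 1, 1 and 3 in males, with 2 higher in RAR in each sex. Psmb11, a proteasome subunit of cortical epithelium, was −4.71 to −3.94 from control in all 6 comparisons. Of 7 B cell markers 1 to 4 fell in each comparison, with Ms4a1, which encodes CD20, changed by −1.11 to −0.69 in all 6, and 0 or 1 rose. Of 7 erythroid markers, 0 to 2 rose and 0 or 1 fell in each comparison.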

How the data were processed

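Thymocyte RNA of 24 samples was hybridised to 2-color Agilent mouse arrays. Per the file headers, the authors extracted the scans with Feature Extraction 11.5.1.1, and the deposited intensity values used here are its background-subtracted, dye-normalized processed signals. Of the log2 ratios that the authors deposited in a separate table, at least 99.77% per array lay within 0.01 of log2 Cy5 over Cy3 from these signals, so that table was neither centred nor turned. From each array of 62976 spots, control spots and 183 to 368 outlier spots were left out, spots of a probe were averaged, and log2 of Cy5 over Cy3 was computed for 55681 probes, 28026 of them named through RefSeq accessions. Groups followed the labels. A model of the 8 group means without covariates was fitted (limma 3.58.1, R 4.3.3), and p-values were adjusted by Benjamini-Hochberg over all probes. They rest on 1 estimate of the spread within groups for each probe, shared by all 24 arrays (16 residual and 1.63 prior degrees of freedom). The brightest probe stood for a gene. Limits of the form "at least" came from the processed Cy5 signal after loess and Aquantile. In simulated data of female high dose against control with all 55681 probes, 50 probes were changed at each size. Of changes of 1, 2, 3 and 4 (log2), 30%, 66%, 86% and 94% were recovered. The share changed was smaller than the 7.89% of probes called in the real comparison, so the recovery need not hold there.

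The genes and lists were chosen with earlier results of these data known. All 10 genes were described, up to 3 genes of each pathway list and 2 of each marker list were named by the number of comparisons passed and then by mean change, and the 5 genes most like Arg1 and Hcar2 by Pearson's r. Alternatives were Cy5 alone (scaled to the 75th percentile), normexp (offset 50), quantile normalization, a filter on dim probes, the other probe, slide or replicate as a block, an unmoderated linear model, a larger minimum change, and leaving out each array. Same-numbered replicates did not deviate together (median r −0.0034, −0.164 to 0.222, 84 pairs), so they were not paired. Promoters were 250 bases from RefSeq on GRCm38.p6. A motif and a marker gene that were also examined are not reported here.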

Additional observations from a re-analysis of the deposited data

How the results depend on the processing

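Of 3721 values of single genes under the alternatives, 3592 kept their direction and their side of the threshold or, without a test, moved by less than the spread between replicates. Many alternatives could not move the change itself, such as leaving out an array of another group, the filter, the unmoderated model or the larger minimum change. The share kept is therefore no measure of robustness. The calls of Acod1 in all comparisons, and of Hcar2 and Msr1 against control by their brighter probes, were among the values kept. Precision was limited by the 3 arrays per group and, for Arg1, Cd163 and the control arrays of Hcar2 and Msr1, by signal at background. Without both female RAR arrays that stood apart, 2 genes in place of 5 passed against high dose and 2 in place of 5 against low dose. With a minimum change of 1.5 (log2) 3 passed in female RAR against low dose, and the calls of list genes over all comparisons numbered 163 in place of 383. Leaving out 1 array at a time gave 0 to 1 genes differing between male and female control, with 1 (Msr1) without female control replicate 2.

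Values of genes that missed the threshold changed sign as follows, and the cause was not tested. The Cy5 channel alone moved the median of all probes to 0.64 in female RAR and 0.33 in male RAR against control, and to 0.39 and 0.43 in female RAR against high and low dose. In Cy5 alone, Arg1 was 0.63 and 0.72 in males after the high and low dose, Cd163 was 0.11 in females after the low dose, 0.86 and 0.21 in males after the high and low dose and 1.31 in female RAR against low dose, Retnla was 0.86 and 0.46 in female RAR against high and low dose and 0.40 in male RAR against low dose, and Msr1 was −0.0089 in females between high and low dose. Under normexp, Arg1 was −0.071 and −0.11 in females after the high and low dose and Retnla −0.0036 after the low dose, Retnla was 0.27 and 0.19 in female RAR against high and low dose and 0.023 in male RAR against low dose, and Cd163 was 0.059 and 0.076 in females after the high and low dose, 0.027 in males after the high dose, −0.13 in female RAR against high dose, and 0.029 and 0.081 in male RAR against high and low dose. With the other probe, Hcar2 was −0.18 in female RAR against high dose and −0.66 in males between high and low dose, and Msr1 was −0.48 in females between high and low dose and −0.14 in the sex difference of the response to RAR. Under quantile normalization, Cd163 was 0.021 in females after the low dose, 0.035 in female RAR and 0.030 in male RAR against low dose, and Nos2 was −0.12 in female RAR against high dose and 0.040 in males after the high dose. With slide as a block, Arg1 was −0.95 and −0.22 in females after the high and low dose, and Cd163 was 0.097 and 0.024 there, 0.045 in males after the high dose, 0.23 in female RAR against low dose, and 0.014 and 0.37 in male RAR against high and low dose. Without the arrays that stood apart, Retnla was 0.50 in female RAR against high dose and Cd163 0.079 against low dose.

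Leaving out 1 array moved Arg1 over −0.33 to 0.80 and −0.30 to 0.83 in females after the high and low dose, and over −1.42 to 0.0066 and −1.10 to 0.32 in males. Cd163 ranged over −0.17 to 0.0023 in females and −0.47 to 0.0013 in males after the low dose, −0.62 to 0.18 in males after the high dose, −0.17 to 0.56 and −0.20 to 0.030 in female RAR against high and low dose, and −0.52 to 0.28 in male RAR against high dose. Retnla ranged over −0.36 to 0.074 in females after the high dose and −0.64 to 0.0094 in female RAR against high dose, and Nos2 over −0.047 to 0.10 there. Between high and low dose the ranges were −0.095 to 0.30 for Msr1 in females, and −0.058 to 0.48 for Acod1 and −0.25 to 0.51 for Chil3 in males. With the replicate number as a block, 4 genes in place of 5 passed in female RAR against low dose (Chil3 at 1.44, limma adjusted p = 0.0598, range over alternatives 0.00763 to 0.311), the list gene calls numbered 379, and no other count of the 10 genes changed.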
